A study of Mus musculus with 6 samples.

Results

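The genes described here are 6 receptors of the chemokine system (Ccr1, Ccr2, Ccr7, Ccrl2, Cxcr4 and Ackr3) and 3 ligands of the CXC class (Cxcl1, Cxcl12 and Cxcl16). They were taken by symbol from a table of 30445 genes, and all 9 are in it. RNA of wild type mouse cells was sequenced from 3 groups of 2 libraries each: mouse embryonic fibroblasts (MEF), a myeloid-like cell complex (MCC) and induced macrophages (iMac). The title of the study names c-Myc as the factor that turns fibroblasts into macrophages. How MCC and iMac cells were made, when they were collected and whether the 2 libraries of a group came from separate cultures is stated in none of the sources used here. P-values therefore measure only the spread between these libraries, which may be technical.

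Chemokines are small secreted proteins that steer moving cells. Most are read by receptors with a chain that crosses the membrane repeatedly and that signal through inhibitory G proteins, which raises calcium, activates PI3-kinase gamma and the GTPase Rac, and reshapes the actin skeleton. Atypical receptors bind chemokines without this G-protein signal and take them up or present them. In blood and tissue, Ccr2 and its ligand Ccl2 are known for bringing monocytes out of bone marrow, Ccr7 for guiding mature dendritic cells to lymph nodes, and Cxcr4 with Cxcl12 for keeping blood cells in their marrow niche, where stromal cells secrete Cxcl12.

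The starts of these genes differ in base composition. Of the 4 starts shown, those of Ccr1 and Cxcl12 show this contrast, and those of Ccrl2 and Cxcl1 a motif. RefSeq on GRCm38.p6 gives a start region, 250 bases before to 50 after the start, for 7 of the 9 genes (not for Ccr7 or Cxcl16). The Ccr1 and Ccr2 regions each hold 1 CG pair in 300 bases, a number that 14.1% of all 32851 start regions do not exceed. The Cxcr4 and Cxcl12 regions each hold 20, which 26.5% of all regions reach, while the median is 7. The remaining regions lie between, with 6, 8 and 8 for the starts of Ccrl2, 8 for Ackr3 and 10 for Cxcl1. Whether the number of CG pairs goes with a rise or fall was not tested. Below are the 150 bases before the start of Ccr1, a receptor that rose in both myeloid groups, and of Cxcl12, a ligand that fell in both, 5′ to 3′ on the gene's strand with CG pairs in capitals. The Ccr1 stretch is chr9:123968693-123968842 on the minus strand, and the Cxcl12 stretch is chr6:117168385-117168534 on the plus strand.
Ccr1: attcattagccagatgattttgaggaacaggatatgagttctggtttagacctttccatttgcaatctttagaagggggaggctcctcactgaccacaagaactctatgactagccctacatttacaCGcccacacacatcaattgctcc
Cxcl12: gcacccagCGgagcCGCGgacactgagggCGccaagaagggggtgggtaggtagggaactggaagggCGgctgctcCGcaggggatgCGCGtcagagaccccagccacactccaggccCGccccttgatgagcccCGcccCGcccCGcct
The Ccr1 stretch holds 1 CG pair and the Cxcl12 stretch 12.

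The letters of 4 motifs were searched on both strands of these regions: CACGTG, the E-box bound by Myc-Max; GAGGAAGT, an ETS site of the PU.1 kind; TTGCNNAA, a C/EBP site; and GGANTTTCC, an NF-κB site, where N is any base. CACGTG and GAGGAAGT were found in none of the regions of the 7 genes. TTGCNNAA was found in that of Ackr3 alone, with its first base at position -47 from the start. GGANTTTCC was found in that of Cxcl1 and in the first of the 3 regions of Ccrl2, but not in the others of Ccrl2. It is present in 1.25% of all start regions (CACGTG in 7.15%, GAGGAAGT in 3.2% and TTGCNNAA in 10.8%). Below are the 100 bases before the start of both genes, with the match in capitals, since Ccrl2 rose in the myeloid groups while the level of Cxcl1 was lower there. The Ccrl2 stretch, of the first of its 3 starts, is chr9:111057519-111057618 on the minus strand, and the Cxcl1 stretch is chr5:90891145-90891244 on the plus strand.
Ccrl2: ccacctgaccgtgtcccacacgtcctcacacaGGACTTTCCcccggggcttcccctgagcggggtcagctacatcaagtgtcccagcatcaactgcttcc
Cxcl1: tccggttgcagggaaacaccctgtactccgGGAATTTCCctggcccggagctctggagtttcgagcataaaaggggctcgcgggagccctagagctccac
The match starts at position -68 in Ccrl2 and at -70 in Cxcl1. A match of letters is a description and shows no binding, and these data hold no measure of binding.

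Library totals ranged from 34389817 to 39174367 counts, and levels are given as counts per 1000000 counts of a library (CPM), after its total was scaled. The labels were checked against marker genes. The 8 macrophage markers summed to 23.0 and 47.9 CPM in the MEF libraries, to 13080 and 12490 CPM in MCC, and to 22860 and 19010 CPM in iMac. The 8 fibroblast markers summed to 19320 and 8029 CPM in the MEF libraries, to 863 and 73.9 CPM in MCC, and to 14.1 and 10.9 CPM in iMac. MCC library 1 thus held more fibroblast marker RNA than MCC library 2. Neutrophil markers summed to at most 1.77 CPM in any library, T and NK cell markers to at most 1.22, and B cell markers to at most 1.18. The neutrophil markers did not all move alike. Ly6g and Mpo were at 0 counts in MCC and iMac. In MEF, MCC and iMac, S100a8 had 13, 67 and 7 counts, and Elane 0, 12 and 15. Ltf had 1, 12 and 1, Cxcr2 2, 13 and 9, and Camp 5, 1 and 5. The 7 dendritic cell markers in the table summed to between 7.10 and 17.6 CPM. In MEF, MCC and iMac, Flt3 had 0, 4 and 0 counts and Siglech 0, 72 and 58. Endothelial markers summed to 8.02 to 12.8 CPM, but they went apart. In MEF, MCC and iMac, the mean of Pecam1 was 0.436, 2.56 and 3.53 CPM, and that of Tek 2.11, 0.0134 and 0.0151. Cdh5 was at 2.36, 1.10 and 0.585 CPM, and Kdr at 6.39, 5.27 and 4.38. Mast cell markers summed to 2.41 and 9.69 CPM in MEF and to at most 0.0520 elsewhere, and blood stem and progenitor markers to 58.8 and 188 CPM in MEF and to at most 2.50 elsewhere. Kit, which is in both lists, held 2.41 and 9.40 CPM in MEF, nearly all of the mast cell sum. Cd34 held 45.7 and 168 CPM, most of the stem and progenitor sum, while Myb was at 0.407 and 1.26 CPM. The megakaryocyte list stood at 4.39 and 4.12 CPM in MEF and at 181 to 291 in the myeloid groups, where Pf4, itself a CXC ligand, carried it. Myc was at 70.7 and 63.1 CPM in MEF, against 823 and 1164 CPM in MCC and 1022 and 1060 CPM in iMac. Whether these reads come from the cells' own gene or an introduced copy cannot be told from the table. In such bulk samples, fewer cells of a type and less RNA per cell cannot be told apart.

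Of the 9 genes, 8 passed the filter on low counts, which left 18613 genes in all, and Ccr7 did not. In MCC against MEF, 4 of these genes rose (Ccr1, Ccr2, Ccrl2 and Cxcl16) and 1 fell (Cxcl12) by edgeR's quasi-likelihood test at an adjusted p under 0.05. That test called 53% of all genes, 23.4% higher and 29.6% lower, so a count of this size is near the background. In iMac against MEF, the same 4 rose and 3 fell (Ackr3, Cxcl1 and Cxcl12), where 57.6% of all genes were called, 25.1% higher and 32.4% lower. The libraries of the groups did not overlap for any of the 8, as for 80.5% of all genes tested in MCC against MEF and 82.6% in iMac against MEF. These comparisons share the MEF libraries, so their likeness is no independent evidence. In iMac against MCC, none of the 9 was called, where 0.0215% of all genes were, 0.0107% higher and 0.0107% lower. There, 2 of them had an unadjusted p under 0.05, as did 18.2% of all genes tested, and DESeq2 called 2 and limma-voom 0, where they called 14.7% and 0.784% of all genes.

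**Figure D1:**
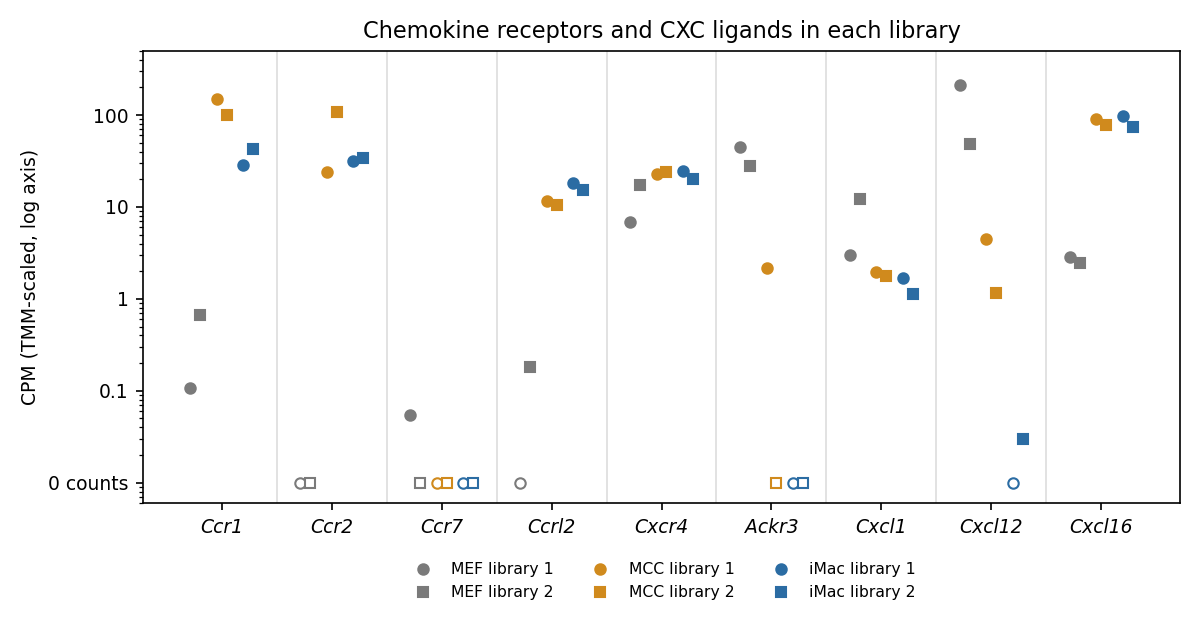
Level of each gene in each library, in CPM on a log axis; circles are library 1 and squares library 2 of MEF (grey), MCC (orange) and iMac (blue), and open symbols at the bottom are 0 counts. Ccr1, Ccr2, Ccrl2 and Cxcl16 lie higher in all 4 myeloid libraries than in both MEF libraries, Cxcl12 and Ackr3 lie lower, and Cxcr4 differs least.

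Ccr1 is a receptor of myeloid cells for inflammatory CC ligands such as Ccl3, Ccl5 and, in the mouse, Ccl6 and Ccl9. It lies at chr9:123962124-123968692 on the minus strand of GRCm38. Its level was 0.108 and 0.670 CPM in MEF, against 148 and 100 CPM in MCC and 28.9 and 42.5 CPM in iMac. The 3 groups did not overlap, and both MCC libraries were above both iMac libraries. Ccr1 rose by 8.29 ± 0.77 (log2, SE, n = 2 libraries a group) in MCC and by 6.49 ± 0.73 in iMac against MEF (edgeR adjusted p = 0.00174 and 0.00224). The fold rests on few MEF counts: leaving out MEF library 1 gave 7.53 and 5.74, and leaving out MEF library 2 gave 10.18 and 8.29.

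Ccr2, the monocyte receptor for Ccl2, Ccl7 and Ccl12, lies at chr9:124101950-124113557 on the plus strand. It had 0 counts in both MEF libraries, 23.9 and 109 CPM in MCC, and 31.7 and 33.8 CPM in iMac. Every myeloid library was above MEF, and the MCC libraries differed from each other 4.56-fold so that MCC library 1 was below and MCC library 2 above both iMac libraries. MCC library 2 held 4080 of the 5000 MCC counts. Against a floor of 3 counts over the MEF group, Ccr2 was at least 1664-fold higher in MCC and at least 826-fold higher in iMac (edgeR adjusted p = 0.00545 and 0.00549). Such bounds, and the counting intervals given for other genes, cover counting error only. Ccr2 was not called by limma-voom in either comparison (adjusted p = 0.0681 and 0.0786), and of its stretches of 50 bases 1.91% also occur in other genes.

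Ccr1 and Ccr2 are near neighbours, and their balance was not the same in every library. Per exonic base, Ccr1 made up 93.7% of the Ccr1 and Ccr2 total in MCC library 1 and 68.7% in MCC library 2. In iMac it made up 68.6% and 75%. Among the 4 myeloid libraries, MCC library 1 had the highest Ccr1 share, and the other 3 lay between 68.6 and 75%. In MEF the share rests on 4 and 26 counts of Ccr1 against none of Ccr2.

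Ccrl2 is an atypical receptor that binds chemerin and presents it to cells with the chemerin receptor Cmklr1. It lies at chr9:111054486-111057519, and the first of its 3 start regions, the only one with the NF-κB letters, is shown above. Its level was 0 and 0.180 CPM in MEF, against 11.7 and 10.5 CPM in MCC and 18.1 and 15.2 CPM in iMac. All 4 myeloid libraries were above both MEF libraries, and the iMac libraries were above the MCC libraries. Ccrl2 rose by 6.86 ± 0.88 in MCC and by 7.45 ± 0.89 in iMac (log2, SE, n = 2; edgeR adjusted p = 0.00385 and 0.00264). MEF library 2 held all 7 MEF counts of Ccrl2: leaving out MEF library 1 gave 5.92 and 6.51, and leaving out MEF library 2 leaves the MEF group at 0 counts.

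Cxcr4, the signalling receptor for Cxcl12, lies at chr1:128588199-128592293 on the minus strand. Its level was 6.83 and 17.4 CPM in MEF, against 23.1 and 24.2 CPM in MCC and 24.4 and 20.1 CPM in iMac. All myeloid libraries were above both MEF libraries, but the MEF libraries differed from each other by more than the myeloid libraries did. The log2 difference of 0.97 ± 0.44 in MCC and 0.88 ± 0.44 in iMac against MEF (SE, n = 2) did not pass the edgeR test (adjusted p = 0.12 and 0.144). It passed in both when MEF library 2 was left out (1.84 with adjusted p = 0.008 and 1.68 with adjusted p = 0.00832), and shrank to 0.45 and 0.37 when MEF library 1 was left out (adjusted p = 0.112 and 0.157).

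Ackr3, an atypical receptor that takes up Cxcl12, lies at chr1:90203980-90216751 on the plus strand. It had 44.6 and 28.0 CPM in MEF, 2.16 and 0 in MCC, and 0 counts in both iMac libraries. Only MCC library 1, the myeloid library with the most fibroblast marker RNA, held Ackr3 reads outside MEF (83 counts). Ackr3 fell in iMac, where its level was lower at least 801-fold (edgeR adjusted p = 0.0239). In MCC the log2 difference of -5.06 ± 1.69 (SE, n = 2) was not called (adjusted p = 0.0673). The call in iMac was lost without any of the MEF or iMac libraries in turn (adjusted p = 0.0817 and 0.0766 after omission of MEF library 1 and 2, and 0.0885 and 0.0895 after that of iMac library 1 and 2), and in MCC the difference was called without MCC library 1 (adjusted p = 0.00206) or 2 (-3.95 with adjusted p = 0.00786), by limma-voom (-7.66, adjusted p = 0.0174) and with no filter on low counts (-5.05, adjusted p = 0.0464), but not by DESeq2 (adjusted p = 0.245).

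The Cxcl12 receptors stood in different proportions in fibroblasts and myeloid cells. Per exonic base, Ackr3 made up 77.9% and 46.5% of the Ackr3 and Cxcr4 total in MEF, 4.81% and 0% in MCC, and 0% in both iMac libraries. Ackr3 outweighed Cxcr4 in MEF library 1, and Cxcr4 was slightly ahead in MEF library 2 and far ahead in every myeloid library.

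Ccr7, the receptor for Ccl19 and Ccl21, lies at chr11:99144196-99155077. It had 2 counts in MEF library 1 and 0 in the other 5 libraries, at a floor of 0.0396 CPM in MEF and MCC and 0.045 in iMac. It was not tested and has no fold. Ccr7 was not detectable at this depth in MCC and iMac. The dendritic cell marker sum, whose list holds Ccr7 itself, lay between 12.3 and 17.6 CPM there. Most of that sum was Itgax (3.17 and 7.06 CPM in MCC, 11.5 and 9.86 in iMac) and Zbtb46. Zbtb46 was at 7.80 and 7.60 CPM in MCC and 4.42 and 4.37 in iMac, but also at 6.59 and 9.53 in MEF.

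Among the ligands, Cxcl16 is made as a membrane-bound chemokine that also takes up oxidised lipoprotein and is shed by Adam10 and Adam17. It lies at chr11:70453983-70459984 on the minus strand. Its level was 2.87 and 2.47 CPM in MEF, against 91.3 and 78.6 CPM in MCC and 98.2 and 73.5 CPM in iMac. The myeloid libraries were all far above MEF and interleaved with each other. Cxcl16 rose by 4.99 ± 0.22 in MCC and by 5.004 ± 0.22 in iMac (log2, SE, n = 2; edgeR adjusted p = 0.000223 and 0.000185), the smallest error relative to its size among these genes. Its level is uncertain, because 18.3% of its exonic bases are shared with Zmynd15, and strand handling of the counts is not given. Zmynd15 was at 0.352 and 0.515 CPM in MEF, against 17.7 and 15.2 CPM in MCC and 18.6 and 16.9 CPM in iMac, and rose by 5.23 ± 0.27 and 5.34 ± 0.27.

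Cxcl12, the stromal chemokine read by Cxcr4 and Ackr3, lies at chr6:117168535-117181367, and its CG-rich start is shown above. Its level was 211 and 48.9 CPM in MEF, against 4.53 and 1.15 CPM in MCC and 0 and 0.0302 CPM in iMac. The groups did not overlap, and within MEF and within MCC library 1 was the higher. Cxcl12 fell by 5.51 ± 1.05 in MCC (log2, SE, n = 2; edgeR adjusted p = 0.0114). In iMac it fell to 1 count in both libraries together, 8525-fold lower than MEF, with 1530 to 336700 as the 95% counting interval (edgeR adjusted p = 0.0035). With MEF library 1 or 2 left out, the log2 fold change in MCC was -4.10 and -6.13, and with MCC library 1 or 2 left out it was -6.81 and -4.72. Of the 9683 MEF counts behind the iMac ratio, MEF library 1 held 7786, and in iMac the call was lost with limma-voom (adjusted p = 0.0872).

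Cxcl1, a neutrophil attractant read by Cxcr2, lies at chr5:90891241-90893115 on the plus strand. Its level was 3.04 and 12.1 CPM in MEF, against 1.95 and 1.79 CPM in MCC and 1.70 and 1.12 CPM in iMac. Both MEF libraries were above every myeloid library, MEF library 1 by little. Cxcl1 fell by 2.42 ± 0.71 in iMac (log2, SE, n = 2; edgeR adjusted p = 0.0347), and in MCC the difference of -2.01 ± 0.69 was not called (adjusted p = 0.0592). The iMac call was lost without MEF library 2 (-1.13, adjusted p = 0.0892), after omission of iMac library 1 or 2 (adjusted p = 0.112 and 0.167) and with the replicate numbers as a block (adjusted p = 0.0716), and the MCC difference was called without MEF library 1 (-2.68, adjusted p = 0.0117) and by DESeq2 (adjusted p = 0.0162), and shrank to -0.64 without MEF library 2 (adjusted p = 0.263).

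Cxcl2, the next chemokine gene along the chromosome and also a Cxcr2 ligand, did not share the lower level. It was at 0.0271 and 1.91 CPM in MEF, against 6.79 and 5.24 CPM in MCC and 7.26 and 7.51 CPM in iMac. Its log2 differences of 2.63 ± 1.29 and 2.92 ± 1.31 (SE, n = 2) were not called by edgeR (adjusted p = 0.142 and 0.111), and the difference between the 2 neighbours was not tested. Cxcr2 itself had 2 counts in MEF, 13 in MCC and 9 in iMac and was not tested.

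**Figure D2:**
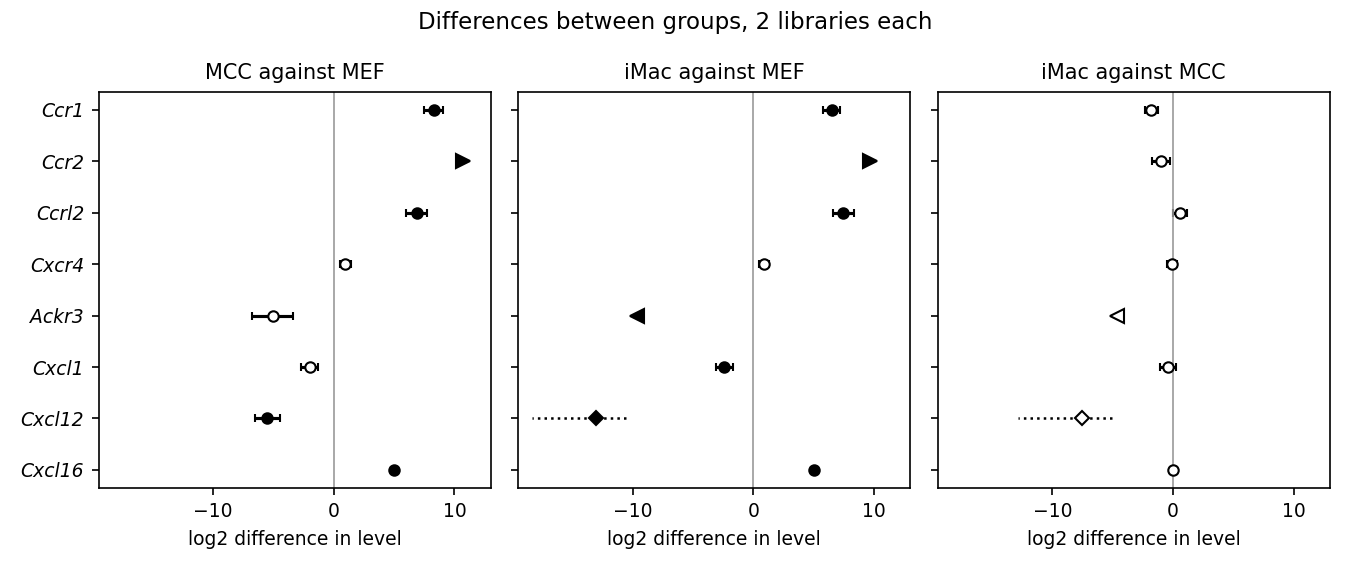
Log2 difference of each tested gene in the 3 comparisons; circles are edgeR estimates with SE, triangles are bounds against a floor of 3 counts, diamonds are ratios against 1 count with dotted 95% counting intervals, and filled symbols have an adjusted p under 0.05. Filled symbols appear in both comparisons against MEF and in none of iMac against MCC.

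Cxcl12, Ackr3 and Cxcl1 were highest in the fibroblast libraries, so their values were set beside the fibroblast marker sum. Cxcl12 was higher in MEF library 1 than in MEF library 2, as was the marker sum (19320 and 8029 CPM), and higher in MCC library 1 than in MCC library 2, again as the marker sum (863 and 73.9 CPM). Ackr3 had the same order in both groups. Cxcl1 had the opposite order in MEF, with 12.1 CPM in the library of the lower marker sum. The MEF sum was mostly collagen RNA, with Col1a1, Col1a2 and Col3a1 at 8227.1, 6201.5 and 3770.8 CPM in MEF library 1. In MEF, Pdgfrb (356 and 176) and Thy1 (409 and 193) had the order of the sum. Dcn (119 and 111) and Lum (61.2 and 51.0) differed little, and Pdgfra (173 and 216) had the opposite order. The MEF order of the sum is thus no measure of fibroblast content. The part of remaining fibroblast RNA in the MCC levels was not tested.

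**Figure D3:**
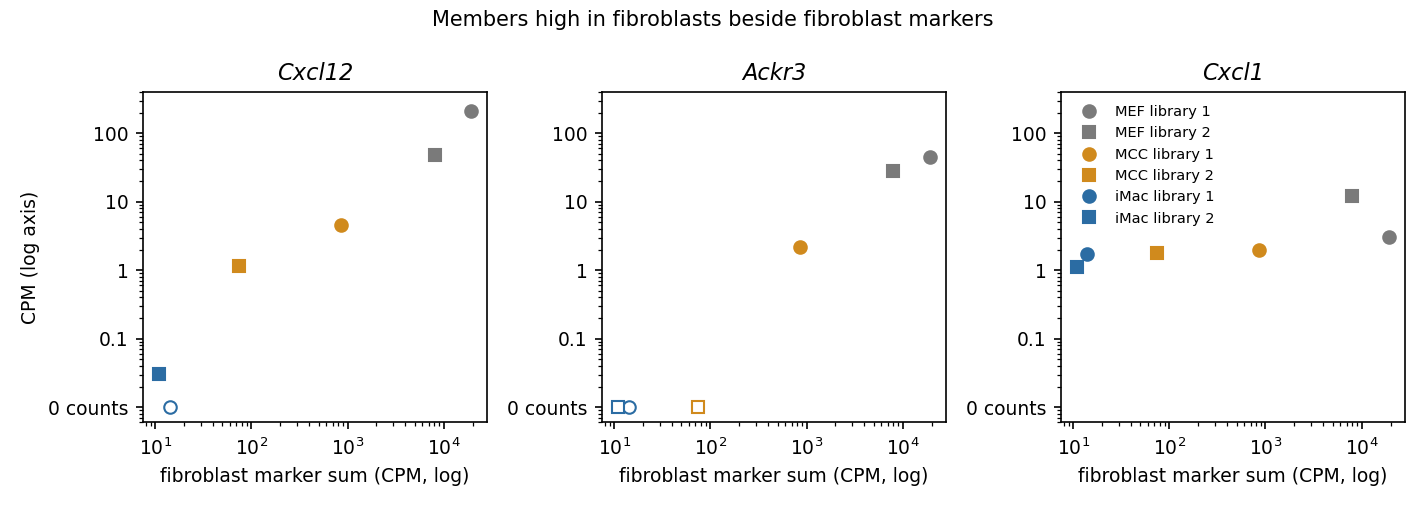
Level of Cxcl12, Ackr3 and Cxcl1 against the summed level of 8 fibroblast markers in each library, both in CPM on log axes, with open symbols for 0 counts. Cxcl12 and Ackr3 are higher in MCC library 1, at a marker sum of 863, than in MCC library 2, at 73.9, while Cxcl1 is nearly equal in both.

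Between iMac and MCC, edgeR called none of these genes. The closest were Ccr1, which was lower in iMac by a log2 difference of -1.80 ± 0.55 (SE, n = 2; unadjusted p = 0.0216, adjusted p = 0.218), and Cxcl12, which was lower 191-fold (counting interval 33.9 to 7568; unadjusted p = 0.00957, adjusted p = 0.18). Neither overlapped between the groups, as for 55.6% of all genes tested. Both were called when only these 2 groups were fitted (adjusted p = 0.0272 and 0.0356) and by DESeq2 (adjusted p = 0.0296 and 0.00129), but those settings also called 1364 and 2734 genes in all, against 4.

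For the others, the edgeR log2 difference of iMac against MCC was -1.02 ± 0.75 for Ccr2, 0.59 ± 0.61 for Ccrl2, -0.09 ± 0.44 for Cxcr4, -0.41 ± 0.69 for Cxcl1 and 0.01 ± 0.18 for Cxcl16 (SE, n = 2; adjusted p from 0.519 to 0.99). The direction for Ccr2 turned to 0.32 without MCC library 2, and those of Cxcr4 and Cxcl16 turned with the omission of some libraries. Ackr3, at 83 counts in MCC and 0 in iMac, was at least 24.3-fold lower (adjusted p = 0.326), a difference carried by MCC library 1. Without MCC library 2 it was called (adjusted p = 0.0178), and without MCC library 1 both groups are at 0.

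Levels of different genes were compared only per length, as CPM per kb of exonic sequence. In MEF the order of the group means (± SD, n = 2) was Cxcl12 (15.9 ± 14.0), Ackr3 (10.8 ± 3.51), Cxcr4 (6.69 ± 4.12), Cxcl1 (4.02 ± 3.402), Cxcl16 (0.885 ± 0.0937), Ccr1 (0.137 ± 0.140) and Ccrl2 (0.0347 ± 0.0491), with Ccr2 at 0. In MCC it was Ccr1 (43.8 ± 11.9), Cxcl16 (28.1 ± 2.96), Cxcr4 (13.1 ± 0.426), Ccr2 (9.84 ± 8.91), Ccrl2 (4.26 ± 0.324), Cxcl1 (0.998 ± 0.0597), Cxcl12 (0.347 ± 0.292) and Ackr3 (0.322 ± 0.456). In iMac it was Cxcl16 (28.4 ± 5.80), Ccr1 (12.6 ± 3.38), Cxcr4 (12.3 ± 1.68), Ccrl2 (6.42 ± 0.789), Ccr2 (4.84 ± 0.225), Cxcl1 (0.751 ± 0.221) and Cxcl12 (0.00184 ± 0.00261), with Ackr3 at 0. The MEF order was not the same in both libraries: Cxcl12 led in MEF library 1 (25.8), while in MEF library 2 the order was Cxcr4 (9.60), Ackr3 (8.35), Cxcl1 (6.43) and Cxcl12 (5.98). The place of Cxcl12 in MEF library 2 is uncertain, because its longest transcript has 5627 bases against the 8176 exonic bases used. With the longest transcript its MEF mean was 23.1 CPM per kb. The level of Cxcl1 per kb is uncertain too, because its exonic bases form 1 block over its whole gene span and would include any introns. Ccr1 and Cxcl16 led in both MCC libraries. Neighbours in these orders whose libraries overlapped were Cxcl12 and Ackr3, Ackr3 and Cxcr4, Cxcr4 and Cxcl1, and Ccr1 and Ccrl2 in MEF. In MCC they were Cxcr4 and Ccr2, Ccr2 and Ccrl2, and Cxcl12 and Ackr3, and in iMac Ccr1 and Cxcr4. At the low end, Ccrl2 and Ccr2 in MEF and Cxcl12 and Ackr3 in iMac met at 0 counts. Ccr7, which was not tested, is left out of these orders. The other neighbours did not overlap, with 2 libraries each.

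**Figure D4:**
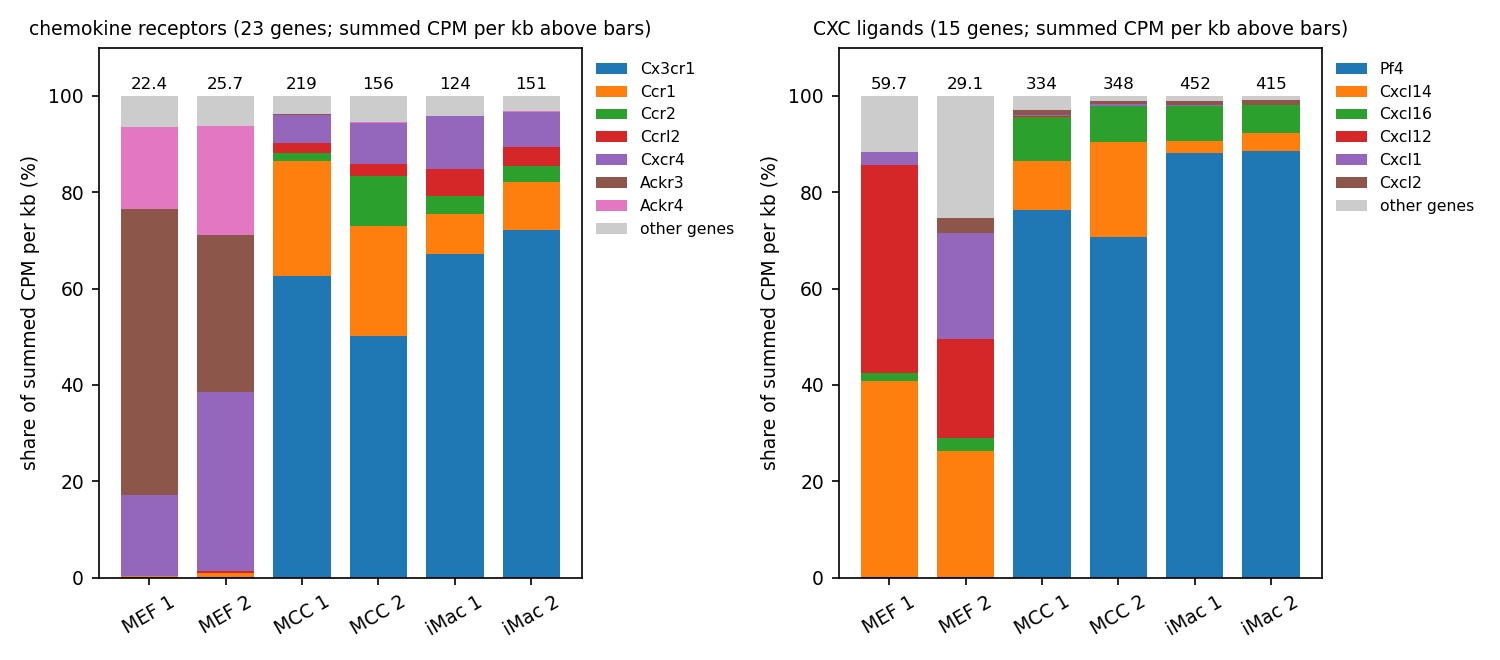
Share of each gene in the summed CPM per kb of 23 chemokine receptors (left) and 15 CXC ligands (right) in each library, with the sum above each bar. Cx3cr1 takes 50.2 to 72.2% of the receptor sum in the 4 myeloid libraries and Pf4 takes 70.7 to 88.6% of the ligand sum.

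Among 23 receptor genes of the table, the summed level was 22.4 and 25.7 CPM per kb in MEF, against 219 and 156 in the MCC libraries and 124 and 151 in the iMac libraries. The 6 receptors described here made up 76.5 and 71.0% of it in MEF, against 33.7 and 44.3% in MCC and 28.6 and 24.5% in iMac. In MEF the sum was mainly Ackr3 (59.4 and 32.5%), Cxcr4 (16.9 and 37.4%) and the atypical receptor Ackr4 (17.0 and 22.7%). In MCC, Ccr1 came second at 23.9 and 22.7%, after Cx3cr1, the receptor for the neuronal and endothelial ligand Cx3cl1, at 62.6 and 50.2%. In iMac, Ccr1 took 8.26 and 9.94% and Cxcr4 10.9 and 7.38%. By the exonic lengths used, Ackr3 or Cxcr4 thus headed the sum in the MEF libraries and Cx3cr1 in every myeloid library. The MEF order is uncertain, because the longest transcript of Ackr4 has 2698 bases against the 5380 exonic bases used. With the longest transcripts, the MEF mean of Ackr4 was 9.61 CPM per kb instead of 4.82. Those of Cxcr4 and Ackr3 were then 6.70 and 11.8.

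Among 15 CXC ligands, the summed level was 59.7 and 29.1 CPM per kb in MEF, against 334 and 348 in the MCC libraries and 452 and 415 in the iMac libraries. Cxcl1, Cxcl12 and Cxcl16 made up 47.5 and 45.4% of it in MEF, against 9.53 and 7.79% in MCC and 7.40 and 6.01% in iMac. In MEF library 1, Cxcl12 led with 43.2% and Cxcl14, a chemokine of epithelia and stroma, took 40.8%. In MEF library 2, Cxcl14 led with 26.1%, followed by Cxcl1 with 22.1% and Cxcl12 with 20.5%. These places rest on the length taken for Cxcl12, 8176 exonic bases against 5627 in its longest transcript. For Cxcl1 the lengths are 1875 and 1871, and for Cxcl14 both are 1827. The exonic bases of Cxcl1 form 1 block over its whole gene span, so its lengths would include any introns. The order in MEF library 2 is thus uncertain. In the myeloid libraries Pf4, platelet factor 4, took 76.3 and 70.7% in MCC and 88.2 and 88.6% in iMac, with Cxcl14 second in MCC (10.2 and 19.7%) and Cxcl16 second in iMac (7.20 and 5.87%).

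The genes around these receptors and ligands were read from lists by role, and each rise or fall in them is a call by edgeR at an adjusted p under 0.05, which 53% and 57.6% of all genes tested met in MCC and iMac. Of the other 17 receptor genes in the table, 7 were tested. In both myeloid groups 4 rose against MEF (Cx3cr1, Ccr3 and Cxcr3 among them), and 2 fell in MCC (Ackr4 and Ccr10) and 1 in iMac (Ackr4). The median log2 difference of the 7 was 6.99 and 5.98, against -0.05 and -0.06 over all genes tested. Cx3cr1 rose from at most 0.0813 CPM in MEF to 616 and 352 in MCC and 374 and 491 in iMac (log2 12.52 ± 0.52 and 12.35 ± 0.51; edgeR adjusted p = 0.000191 and 0.00017). Ackr4, which takes up Ccl19 and Ccl21, fell, with log2 differences of -6.03 ± 0.41 and -7.03 ± 0.44. Cxcr6, the receptor for Cxcl16, was at 1.63 and 0.515 CPM in MEF, against 0.650 and 0.348 CPM in MCC and 0.388 and 0.241 CPM in iMac, and was not called (adjusted p = 0.233 and 0.0924).

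Of 12 genes tested from a broad list of ligands drawn up around these receptors, 6 rose and 2 fell in MCC. In iMac 7 rose and 4 fell (medians 0.93 and 1.10). The list also holds genes, Ccl8 and Ccl11 among them, that are not named above as ligands of the receptors described here. Of the Ccr1 ligands named above, Ccl3, Ccl6 and Ccl9 rose in both groups: Ccl3 by 10.22 ± 1.01 and 11.07 ± 1.02, Ccl6 by 10.29 ± 0.74 and 11.72 ± 0.76, and Ccl9 by 7.63 ± 0.21 and 8.52 ± 0.22 (log2, SE, MCC and iMac against MEF, n = 2). Ccl5 stayed under 1 CPM in every library, with a log2 difference of 0.76 ± 0.37 in MCC that was not called (edgeR adjusted p = 0.141) and a rise of 1.42 ± 0.37 in iMac (adjusted p = 0.024). Ccl4, without counts in MEF, was higher at least 237-fold and 726-fold. Mif, which can act on Cxcr4 and Cd74, rose by 1.09 ± 0.18 and 0.78 ± 0.18.

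The ligands of Ccr2 went apart. Ccl2 was at 151 and 132 CPM in MEF, against 154 and 44.0 CPM in MCC and 7.29 and 8.53 CPM in iMac. MCC library 1 stood at the MEF level and both iMac libraries were far below it. Ccl2 fell by 4.16 ± 0.64 in iMac (log2, SE, n = 2; edgeR adjusted p = 0.00528), and in MCC the difference of -0.52 ± 0.56 was not called (adjusted p = 0.465). Ccl7 fell likewise in iMac (-4.46 ± 0.72), while Ccl12 rose by 5.36 ± 0.52 in MCC and by 2.12 ± 0.48 in iMac. Ccl11, the eosinophil attractant eotaxin, is in the same list but is not one of the Ccr2 ligands named above. It fell in both, to 1 count in MCC (ratio 685, counting interval 123 to 27100) and to 0 in iMac (at least 201-fold lower).

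Chemerin, encoded by Rarres2 and bound by Ccrl2, was already low in MEF and fell to 3 counts in MCC and 2 in iMac, while Cmklr1, the signalling chemerin receptor, rose by 3.77 ± 0.35 and 3.91 ± 0.35. Of the 9 partners and processing enzymes tested, 3 rose and 2 fell in MCC and 4 rose and 4 fell in iMac (medians 0.08 and 0.17). Adam17, which sheds Cxcl16, rose by 1.19 ± 0.11 and 1.92 ± 0.11, and Adam10, the other sheddase of Cxcl16, had a log2 difference of 0.08 in MCC (edgeR adjusted p = 0.442) and fell by 0.33 ± 0.08 in iMac (adjusted p = 0.022). Cd74, a Mif receptor and class II chaperone, rose by 6.43 ± 0.49 and 6.23 ± 0.49. Mmp2, which can cut Cxcl12, fell, with log2 differences of -5.10 ± 1.37 and -10.26 ± 1.77, and Dpp4, a peptidase that also inactivates Cxcl12, fell to 1 count and to 0. Mmp9 rose by 3.10 ± 0.51 in iMac.

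Of 37 tested genes that carry or end the receptor signal, 24 rose in MCC and 24 in iMac, and 3 and 5 fell (medians 2.23 and 2.59). The list mixes both roles, with Rgs, Grk and arrestin genes among those called higher, so its count is no measure of signalling. The largest rises were those of blood cell genes: the GTPase Rac2, with 2 counts in MEF (ratios 12770 and 17730), its exchange factor Vav1 (log2 11.35 ± 0.40 in MCC), the actin regulator Was (10.94 ± 0.32 in MCC) and the G-protein brake Rgs1, with 2 counts in MEF (ratios 1689 and 2174). Arrb2, an arrestin that uncouples receptors, rose by 5.08 ± 0.20 and 5.30 ± 0.20, and the receptor kinase Grk2 by 1.75 ± 0.10 and 2.04 ± 0.10. Against the list, Gnai3 and Gnb1, G-protein subunits made by most cells, fell by 0.56 ± 0.08 and 0.59 ± 0.10 in MCC, and the receptor kinase Grk5 fell by 2.08 ± 0.20. In iMac Gnai3, Gnb1 and Grk5 fell by 0.50 ± 0.08, 0.54 ± 0.10 and 1.67 ± 0.20, and Grk3 by 2.04 ± 0.43. Rgs16 fell most, by 8.16 ± 2.04 in iMac (edgeR adjusted p = 0.0212). In MCC its log2 difference of -3.84 ± 1.58 was not called (adjusted p = 0.0929). Of the 11 CXC ligands tested, 8 lie outside the genes described here, and of these 1 rose in each comparison against MEF, Pf4 (ratios 4560 and 6964), and none fell (medians 0.92 and 0.32).

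In iMac against MCC, edgeR called no gene of these lists. Of the 7 other receptors tested, 1 had an edgeR unadjusted p under 0.05, as did 2 of the 8 other CXC ligands. So did 7 of the 12 genes of the ligand list, 5 of the 9 partners and 7 of the 37 signalling genes, beside 18.2% of all genes tested. DESeq2 called 1, 2, 5, 5 and 9 of them (14.7% of all genes) and limma-voom 0, 0, 1, 0 and 1 (0.784% of all genes).

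The genes whose levels followed each member most closely over the 6 libraries were found by the distance between log2 levels after each gene's mean was taken off, among genes whose mean reached 5 CPM. For Ccr1 they were Itgal, Nlrp3 and Napsa (distances 1.06, 1.35 and 1.95), for Ccr2 Tnfrsf13b and Clec4a1 among others (1.35 and 1.39) and for Ccrl2 Blnk, BE692007 and Apobec1 (0.663, 0.764 and 0.791). For Cxcl16 they were Scarf1, Gna15 and Plcg2 (0.393, 0.458 and 0.464). For Ackr3 they were Tbx15, Csgalnact1 and Epha3 (0.556, 0.617 and 0.622), and for Cxcl12 Thy1, Fhl2 and Pappa (1.2, 1.24 and 1.26). For Cxcr4 the nearest was Pmf1 (0.36) and for Cxcl1 Etv1 (0.783), but with a minimum of 1 CPM Cxcl1 kept none of its 3 nearest genes and Cxcr4 and Cxcl16 kept 1 each.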

How the data were processed

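Counts of reads per gene were deposited by the authors, who used STAR, the mm10 genome and featureCounts, per the submitters' processing notes, which give no versions. None of the sources used here names the annotation, the strand setting or the handling of reads with several matches. RNA was extracted with Trizol and made into mRNA libraries, per the labels' protocols. The counts were used as deposited. The test was that of edgeR 4.0.16 (R 4.3.3; filterByExpr, TMM, quasi-likelihood, two-sided, group as only term, all 6 libraries, 3 residual degrees of freedom), with Benjamini-Hochberg adjustment over 18613 genes, a threshold of 0.05 and a prior count of 0.125. The script was tested on simulated data. A fold against 0 counts is a bound at 3 counts over the group, and against 1 to 3 counts a ratio with its 95% interval. Positions and exon lengths came from GENCODE mouse release M21, on the same assembly.

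The members and lists were chosen with earlier results of these data known. Named from each list were up to 4 called genes a comparison with the largest change and at least 5 CPM in the higher group, called genes that moved against their list, and known ligands or receptors of a member, and chemokine genes of the Cxcl1 cluster. Adam10, Dpp4, Arrb2 and Grk2 were named after their values were seen, and Zmynd15 because it overlaps Cxcl16. Ccrl2 lies apart from the gene cluster of Ccr1 and Ccr2. Ccr8, Ccl19 and Ccl21a were not analysed here. A gene of the receptor list that fell under the naming rule is not reported here. Alternatives were other scalings, DESeq2 1.42.0, limma 3.58.1 (voom), other filters, only the 2 groups compared, a replicate block and each library left out.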

Additional observations from a re-analysis of the deposited data

How the results depend on the processing

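In MCC against MEF, 5 genes were called, and 5 to 6 when a library was left out. In iMac against MEF, 7 were called, 5 to 7 with a library left out, and 4 by limma-voom, where Ccr2, Cxcl1 and Cxcl12 were lost. In iMac against MCC, 0 were called, 0 to 1 with a library left out, 2 by DESeq2 and 2 when only these groups were fitted. Of the single-gene values in the comparisons against MEF, none turned its direction under any of the 14 alternatives. In iMac against MCC the log2 difference of Cxcl16 turned to -0.13 without scaling factors, to -0.00381 with a filter of 5 CPM, and to -0.07, -0.22 and -0.21 without MEF library 2, MCC library 2 and iMac library 1. With a library left out, it ran from -0.22 to 0.21 for Cxcl16, from -1.76 to 0.32 for Ccr2, which turned without MCC library 2, and from -0.23 to 0.0495 for Cxcr4, which turned without iMac library 2. The causes were not tested.

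The replicate numbers were not shown to pair the libraries, since there are only 2 pairs and deviations of same-numbered libraries correlated at 0.131 or less. With the replicate numbers as a block, 5, 6 and 0 of the genes were called in the 3 comparisons. Over all genes the block called 9022, 9908 and 0 (9864, 10717 and 4 without it). In iMac against MCC, DESeq2 called 2734 genes, limma-voom 146, no filter 89, a fit of the 2 groups alone 1364, and leave-one-out fits 0 to 1202. Without scaling factors it called 3 (1 higher, 2 lower; 2 and 2 with them). In iMac against MEF, 5173 and 5197 were called without iMac library 1 and 2. A group left with 1 library is assumed to vary like the others. Cxcl1 was removed by the filter of 5 CPM, and Ackr3 had no value for iMac against MCC without MCC library 1 or in the fit of those 2 groups. With the longest transcript as gene length, some means per kb moved by more than their SD. These were Ccr2 in iMac and Cxcl16 in MEF and MCC, which moved to 5.71, 0.990 and 31.5. The Cxcl12 mean in MEF went from 15.9 to 23.1, within its SD of 14.0. Orders and shares were not computed with that length. With 2 libraries a group, the spread limits what could be called.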
